A study of Mus musculus with 16 samples.

Results

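The interferon-stimulated effector genes are 42 named mouse genes whose products carry out the antiviral and growth-restraining work of an interferon response. They were listed by name, as genes known to be induced by interferon, out of 30141 genes in the deposited tables. All 42 passed the filter on low counts, which kept 18341 genes. They fall into 8 classes by role: conjugation of the ubiquitin-like protein Isg15, the 2-5A synthetases, antiviral factors at membranes, entry and replication, ADP-ribosylation factors, nuclear and death regulators, interferon alpha inducible (Ifi) proteins, Schlafen proteins, and galectins with other induced proteins. Their RNA was measured by RNA-seq in 16 libraries of mouse LSK cells, the bone marrow fraction negative for lineage markers and positive for Sca-1 and Kit that holds haematopoietic stem and early progenitor cells.

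The 9 R882H libraries came from cells that carry mouse wild-type DNMT3A together with a human DNMT3A R882H copy, a substitution in the catalytic domain of this DNA methyltransferase that recurs in acute myeloid leukaemia. The 7 WT libraries came from cells labelled mouse WT DNMT3A +/+. Of the R882H libraries, 5 came from recipients given azacitidine at 2.5 mg/kg, a cytidine analogue that traps DNA methyltransferases on DNA, and 4 from recipients given 0.9% NaCl. Of the WT libraries, 3 had azacitidine and 4 had NaCl. Dosing lasted 2 weeks, with 5 days on and 2 days off. All donors, which included animals with and without Cre under the interferon-inducible Mx1 promoter, had been injected with poly(I:C), a double-stranded RNA mimic that itself elicits interferon, so that Cre would remove a stop cassette before the R882H copy. The labels do not tie the presence of Cre to each library. Donor marrow was taken 4 weeks afterwards, mixed 1:1 with CD45.1 competitor marrow and transplanted into CD45.1 recipients. The labels describe poly(I:C) at 15 µg/g and also at 400 µg, without saying which animals had which, and do not say whether donor and competitor cells were parted in the sort. Replicates are separate libraries of a group. Nothing in the labels says that each came from a separate animal, so the p-values measure only the spread between libraries, which may in part be technical.

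Type I interferons bind the receptor chains Ifnar1 and Ifnar2, whose kinases Jak1 and Tyk2 start the signal to the nucleus. There Irf9 is part of the complex that binds the interferon-stimulated response element in the promoters of induced genes, and Irf7 made in this way amplifies the response. Demethylating agents such as azacitidine are known to raise double-stranded RNA from endogenous retroelements in cancer cells and so to induce these genes, which is the question that the azacitidine comparison puts to them here, and interferon itself is known to drive dormant haematopoietic stem cells into division.

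The promoters of 6 members are shown, picked by name from the 13 found below to carry the core of the response element. In each of the 6 a match lies within the 150 bases before the start, but for Rsad2 and Bst2 none lies within 100 bases. The core searched was GAAA, any 2 bases and GAAA, on either strand, in the 250 bases before each RefSeq start on GRCm38.p6. Of the 42 members, 32 matched the promoter table by symbol, and Usp18, Oas2, Mx1, Mx2, Rtp4, Parp9, Parp14, Ifi27, Ifi27l2a and Tor3a did not. The core was present for 13 of the 32, or 40.6%, against 3.46% of all 27025 genes with a promoter sequence and 3.35% of those among the tested genes. Within 100 bases of the start it was present for 10 members, or 31.2%, against 1.14% of all genes. Matches may overlap, and a match is a stretch of letters, not a measured binding site. The 150 bases that end at the start are printed 5′ to 3′ on the strand of the gene, with each match in capitals; a match on the opposite strand reads TTTC, 2 bases and TTTC.
Isg15: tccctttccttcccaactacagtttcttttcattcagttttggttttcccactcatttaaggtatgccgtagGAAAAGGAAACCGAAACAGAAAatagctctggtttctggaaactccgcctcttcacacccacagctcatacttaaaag
Oas1a: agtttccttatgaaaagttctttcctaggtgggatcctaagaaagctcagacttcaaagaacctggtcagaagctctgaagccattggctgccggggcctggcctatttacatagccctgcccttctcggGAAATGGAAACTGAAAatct
Oas1g: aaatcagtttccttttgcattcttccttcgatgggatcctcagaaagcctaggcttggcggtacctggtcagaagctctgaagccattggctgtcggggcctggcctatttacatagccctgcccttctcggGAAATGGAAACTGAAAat
Rsad2: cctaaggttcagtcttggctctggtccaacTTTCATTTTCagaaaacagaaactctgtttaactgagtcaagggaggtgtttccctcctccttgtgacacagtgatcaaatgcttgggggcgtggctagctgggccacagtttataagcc
Bst2: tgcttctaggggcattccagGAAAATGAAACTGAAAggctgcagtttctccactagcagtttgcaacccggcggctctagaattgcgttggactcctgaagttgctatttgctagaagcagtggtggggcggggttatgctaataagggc
Ddx60: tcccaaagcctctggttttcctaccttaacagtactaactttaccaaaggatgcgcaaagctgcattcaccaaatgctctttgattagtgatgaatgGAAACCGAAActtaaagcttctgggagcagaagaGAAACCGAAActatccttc
On GRCm38.p6 these windows are chr4:156200819-156200968 on the minus strand for Isg15, chr5:120907526-120907675 minus for Oas1a, chr5:120887614-120887763 minus for Oas1g, chr12:26456453-26456602 minus for Rsad2, chr8:71537473-71537622 minus for Bst2 and chr8:61927937-61928086 plus for Ddx60. Isg15 had 3 overlapping matches, Oas1a and Oas1g each had 2 overlapping matches close to the start, Bst2 had 2 overlapping matches farther upstream, Ddx60 had 2 separate ones and Rsad2 had 1 on the opposite strand. The 13 members with the core had a median log2 change of -0.13 for azacitidine against NaCl in R882H and -0.21 in WT, and the 19 without it 0.01 in R882H and -0.19 in WT.

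The libraries held 35860445 to 56012766 counts. The haematopoietic stem and progenitor markers were all present in every library, with Kit at 410 to 1226 CPM (counts scaled by the TMM-normalised library size), Ly6a, which encodes Sca-1, at 30.6 to 275.5 CPM and Cd34 at 427 to 1376 CPM. The 12 markers of this class summed to 3371 to 4601 CPM in R882H azacitidine libraries, against 1963 to 5340 in R882H NaCl libraries, and to 3113 to 3724 CPM in WT azacitidine libraries, against 3280 to 5082 in WT NaCl libraries. R882H NaCl replicate 2 had the lowest sum, 1963 CPM, and the highest sum of 10 erythroid markers, 10070 CPM, against 1054 to 3820 CPM in the other 15 libraries. By group the erythroid sums were 1376 to 1722 CPM in R882H azacitidine libraries, against 1676 to 10070 in R882H NaCl libraries. In WT they did not overlap, at 1054 to 1602 CPM in azacitidine libraries, against 1854 to 2201 in NaCl libraries. R882H NaCl replicate 1 held 24.2 CPM of the T cell receptor component Cd3e, against 0.168 to 3.00 CPM in the other 3 libraries of its group, and its 14 T and NK cell markers summed to 707 CPM. Nkg7 alone held 392 CPM of that sum. It held 841 CPM in WT azacitidine replicate 2, where Cd3e was at 0.0271 CPM, so the sums of this class do not follow Cd3e. The T and NK cell sums ran from 409 to 620 CPM in R882H azacitidine libraries, against 319 to 707 in R882H NaCl libraries, and from 458 to 912 CPM in WT azacitidine libraries, against 346 to 712 in WT NaCl libraries. The other marker classes varied widely as well. The 11 B and plasma cell markers summed to 16720 to 48560 CPM in R882H azacitidine libraries, against 1186 to 23240 in R882H NaCl libraries, and to 1089 to 26200 CPM in WT azacitidine libraries, against 3099 to 44120 in WT NaCl libraries. The 12 macrophage and dendritic cell markers summed to at most 173.4 CPM and the 11 neutrophil markers to at most 651.7 CPM, reached in R882H azacitidine replicate 2. No class had a marker at 0 in all libraries, and the part of these classes in the results below was not tested. Mouse Dnmt3a averaged 96.2 ± 4.54 CPM in R882H azacitidine libraries (SD, n = 5), against 90.5 ± 19.6 in R882H NaCl libraries (n = 4), and 105 ± 35.3 in WT azacitidine libraries (n = 3), against 96.7 ± 9.84 in WT NaCl libraries (n = 4). In sorted cells sequenced in bulk, fewer cells of a kind and less RNA per cell cannot be told apart.

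The effector genes were transcribed across a wide range of levels in LSK cells. Per length, Ifitm3 was the highest at 480.5 FPKM on average over the 16 libraries, followed by Lgals9 at 309.5, Lgals3bp at 105, Ifi27 at 88.3 and Bst2 at 87.9 FPKM. Ifitm3 exceeded 99.7% of tested genes in mean FPKM and Lgals9 99.4%. At the other end stood Mx1 at 0.283, Phf11a at 0.309, Slfn1 at 0.348, Mx2 at 0.632 and Slfn5 at 0.833 FPKM. Isg15 and Usp18, which mark an ongoing response, averaged 13.7 and 8.64 FPKM, and Rsad2 averaged 3.72 FPKM. The summed CPM of the members was 3126 ± 199 in R882H azacitidine libraries (SD, n = 5), against 2926 ± 384 in R882H NaCl libraries (n = 4), and 2607 ± 249.8 in WT azacitidine libraries (n = 3), against 3098 ± 233 in WT NaCl libraries (n = 4). These sums overlapped between azacitidine and NaCl in both genotypes, and 5 members made up 56.5 to 68.4% of the sum, Lgals9 alone 16.8 to 38.2%.

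**Figure D1:**
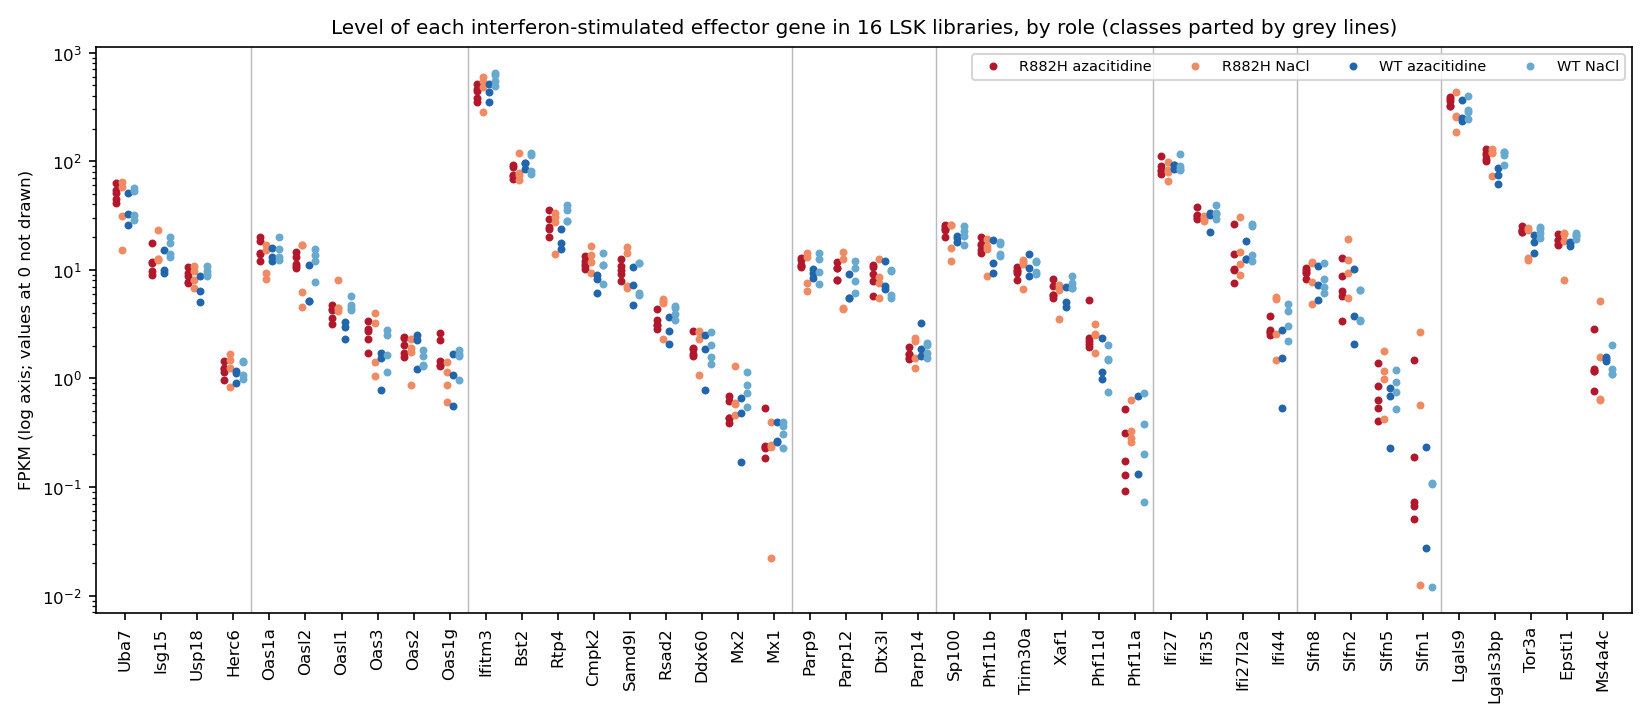
FPKM (length-scaled level, log axis) of the 42 members in each of the 16 libraries, ordered by class and, within a class, by mean level. Each point is a library, coloured by group, from Ifitm3 at 480.5 FPKM on average down to Mx1 at 0.283. Values at 0 are not drawn, and the ranges of the 4 groups overlap for most members.

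No member differed between groups past the threshold, an adjusted p under 0.05 in edgeR's quasi-likelihood test over all 18341 genes, in any of 6 comparisons. DESeq2 and limma-voom called 0 members in each of the 6 as well. The lowest adjusted p of a member in edgeR was 0.345, for Oasl1 in the azacitidine effect averaged over genotypes, and over all tools and settings it was 0.0601, for the same gene and comparison in DESeq2. The accounts of the comparisons below therefore give estimates and counts beside those of all tested genes, for the edgeR fit of all 16 libraries. Counts at an unadjusted p under 0.05 from alternative fits stand without the share of all genes in the same fit. They show how the count moved and are not results about the members. The comparisons share libraries and are not independent of each other.

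For azacitidine against NaCl in R882H cells, 21 members had a positive and 21 a negative log2 change, where 44.3% of all genes were positive and 55.7% negative, with a median of 0.00 against -0.04 over all genes. edgeR called 0 members at a background of 0.00545% of all genes. At an unadjusted p under 0.05 it had 1 member, Oas1g, which was higher, or 2.38% of members, against 2.24% of all genes, and 0 members were lower, against 4.45%. No member had groups that did not overlap, where 1.09% of all genes lay wholly higher and 0.485% wholly lower. By class, 5 of 6 2-5A synthetases were positive (median 0.16), but within replicates 3 and higher only Oas1g of the 6 was, at 0.11, and the others stood at -0.63 to -0.10 in difference of mean log2 CPM. Of the other classes, 8 of 9 antiviral factors were negative (median -0.16) and 3 of 4 Schlafen genes were negative (median -0.61). Within replicates 1 and 2, Mx1, Rtp4, Ddx60, Samd9l and Ifitm3 were positive, at 0.15 to 1.92, and the other antiviral factors negative. Slfn5 and Slfn8 were positive there, at 0.55 and 0.57, and Slfn1 was 1.54 within replicates 3 and higher. Without R882H NaCl replicate 2 the median of the 42 was -0.14, and without replicate 3 of that group it was 0.09. With each library left out, the count at an unadjusted p under 0.05 ran from 0 without R882H NaCl replicate 1 to 4 without replicate 3 of that group. No share of all genes in these fits is given beside it. Without 3 libraries picked after their marker genes and repeat shares were seen (R882H NaCl replicates 1 and 2 and WT azacitidine replicate 1), together called the 3 doubted libraries, 5 members had an unadjusted p under 0.05, of which 3 were higher and 2 lower, and none of them was Oas1g. That count too stands without the share of all genes.

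For azacitidine against NaCl in WT cells, 34 members had a negative and 8 a positive log2 change, where 48.1% of all genes were negative and 51.8% positive, with a median of -0.20 against 0.01 over all genes. edgeR called 0 members at a background of 0% of all genes. At an unadjusted p under 0.05 there were 6 members, all lower, or 14.3%, against 2.03% of all genes lower and 3.99% higher. These were Lgals3bp, Rtp4, Oasl1, Usp18, Ifi44 and Cmpk2. The WT groups did not overlap for 4 members, all lower with azacitidine, or 9.52%, against 2.79% of all genes wholly lower and 2.94% wholly higher, and these were Lgals3bp, Rtp4, Oasl1 and Epsti1. All 9 antiviral factors were negative (median -0.40), as were all 4 genes of Isg15 conjugation (median -0.34), all 4 Ifi genes (median -0.31) and 5 of 6 2-5A synthetases (median -0.51). Within replicates 3 and higher, 1 azacitidine library stood against 2. There Isg15, Oas1a, Oas1g, Oas2, Mx1, Bst2, Ifitm3, Ddx60, Ifi27, Ifi27l2a and Ifi35 were positive, at 0.02 to 0.58 in difference of mean log2 CPM. The other genes of these classes were negative there. The median depended on WT azacitidine replicate 3: it was -0.52 without that library, and -0.15 without replicate 2. The count at an unadjusted p under 0.05 was 10 without R882H NaCl replicate 2, a library of the other genotype that enters through the shared estimate of spread, and at least 4 without any other library. The all-gene shares of these fits are not given.

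The difference between both responses, R882H minus WT, was positive for 31 members and negative for 11, where 46% of all genes were positive and 54% negative, with a median of 0.29 against -0.05 over all genes. edgeR called 0 members at a background of 0%. At an unadjusted p under 0.05 there were 4 members, Lgals3bp, Tor3a, Oas1g and Rtp4, all positive, or 9.52%, against 1.16% of all genes with a positive and 4.92% with a negative difference. That count was 0 without WT azacitidine replicate 1, 1 without WT NaCl replicate 1 and 8 without WT azacitidine replicate 3. These counts stand without the shares of all genes in the same fits. The median was 0.11 without R882H NaCl replicate 2 and 0.08 without the 3 doubted libraries. In that last fit 1 member, Oasl1, had an unadjusted p under 0.05, a count without its share of all genes.

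**Figure D2:**
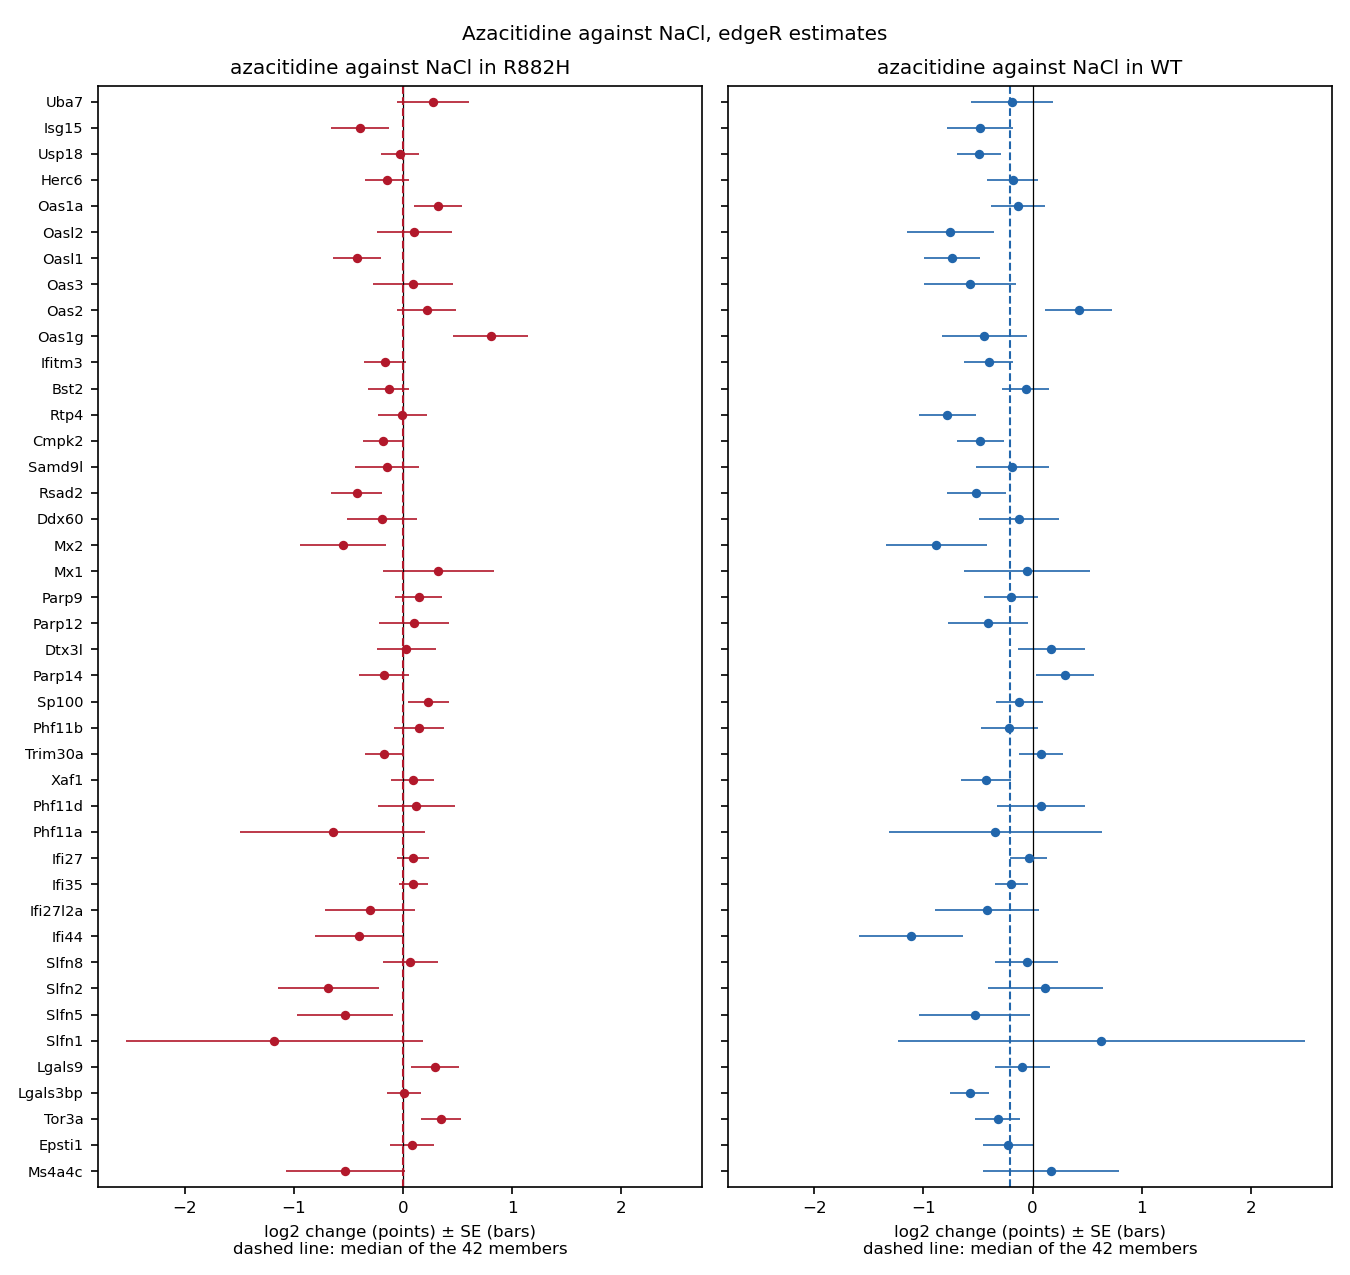
Estimated log2 change of each member, azacitidine against NaCl, in R882H (left) and WT (right), with bars of 1 SE and the median of the 42 members as a dashed line. The R882H estimates lie on both sides of 0 around a median of 0.00, and 34 of the 42 WT estimates lie below 0 around a median of -0.20.

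Under azacitidine, R882H against WT gave 32 members with a positive and 10 with a negative log2 change, where 47.9% of all genes were positive and 52.1% negative, with a median of 0.25 against -0.02 over all genes. edgeR called 0 members at a background of 0.00545%. At an unadjusted p under 0.05 there were 4 members, all higher, or 9.52%, against 2.65% of all genes higher and 6.69% lower, and these were Lgals3bp, Cmpk2, Oas3 and Phf11d. For 4 members, Lgals3bp, Cmpk2, Parp9 and Tor3a, every R882H library lay above every WT library, or 9.52%, against 5.05% of all genes wholly higher and 5.66% wholly lower. The count at an unadjusted p under 0.05 was 11 without WT azacitidine replicate 3 and 1, Lgals3bp, without WT azacitidine replicate 1, and it was 9 with the replicate number as a block. For none of these fits is the share of all genes given.

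Under NaCl, R882H against WT gave 18 members with a positive and 24 with a negative log2 change, where 54.2% of all genes were positive and 45.8% negative, with a median of -0.01 against 0.03 over all genes. edgeR called 0 members at a background of 0.00545%. At an unadjusted p under 0.05 there were 3 members, Slfn2, Slfn1 and Phf11d, all higher, or 7.14%, against 3.64% of all genes higher and 1.96% lower. No member had groups that did not overlap, against 0.878% of all genes wholly higher and 1.09% wholly lower. All 4 Schlafen genes had positive estimates (median 0.80), but Slfn1 was -2.99 without the 3 doubted libraries, and Slfn8 was -0.065 in difference of mean log2 CPM within replicates 1 and 2. The T cell marker Cd3e was at 24.2 and 3.00 CPM in R882H NaCl replicates 1 and 2, which held the most Slfn1 of that group. R882H azacitidine replicate 2 held 2.84 CPM of Slfn1 with Cd3e at 0.696 CPM. The part of T cell RNA was not tested. The count was 0 without WT NaCl replicate 1 or without WT NaCl replicate 2. Without R882H NaCl replicate 1 and WT azacitidine replicate 1 together, the 1 member at an unadjusted p under 0.05 was Bst2, with a lower estimate in R882H. Without the 3 doubted libraries there were 7, of which 5 were higher and 2 lower, namely Bst2, Samd9l, Slfn8, Ms4a4c, Slfn2, Parp12 and Oas3. All counts from fits with libraries left out lack the share of all genes here.

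The azacitidine effect averaged over both genotypes was negative for 29 members and positive for 13, where 53.5% of all genes were negative and 46.5% positive, with a median of -0.16 against -0.02 over all genes. edgeR called 0 members at a background of 0.0218%. At an unadjusted p under 0.05 there were 8 members, all lower, or 19% of members, against 3.85% of all genes lower and 3% higher. These were Oasl1, Rsad2, Ifi44, Lgals3bp, Mx2, Cmpk2, Rtp4 and Isg15, and 8 of 9 antiviral factors had a negative estimate. Without WT azacitidine replicate 1 the count was 3, without WT azacitidine replicate 3 it was 11, and without the 3 doubted libraries it was 14, of which 13 were lower. The shares of all genes in these fits are not given here, so the counts are not set against a background.

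The members are described next by role, with values in every library, in the order of the replicate numbers, for those chosen by the rule given with the methods and as ranges for the others. In the conjugation system, Isg15 (ENSMUSG00000035692, chromosome 4, 156199424 to 156200818, GRCm38) is the ubiquitin-like modifier itself. Isg15 had 9.14, 13.7, 7.74, 8.95 and 7.04 CPM in R882H azacitidine libraries, against 19.5, 10.1, 9.86 and 9.72 CPM in R882H NaCl libraries. For Isg15, WT libraries held 8.06, 7.58 and 12.1 CPM in WT azacitidine libraries, against 14.0, 16.5, 10.1 and 11.1 CPM in WT NaCl libraries. The groups overlapped in both genotypes, and R882H NaCl replicate 1 stood above the other 15 libraries. The log2 change of Isg15 with azacitidine was -0.40 ± 0.27 (SE) in R882H and -0.48 ± 0.31 in WT, with an averaged effect of -0.44 ± 0.20 (edgeR, adjusted p = 0.719), and in R882H it was -0.08 without NaCl replicate 1. Usp18 (chromosome 6, 121245906 to 121270917) removes Isg15 from proteins and restrains the type I receptor. Usp18 stood at 25.1, 30.9, 22.5, 26.9 and 21.9 CPM in R882H azacitidine libraries, against 24.6, 20.3, 31.0 and 28.2 CPM in R882H NaCl libraries. For Usp18, WT libraries held 15.1, 19.0 and 25.9 CPM in WT azacitidine libraries, against 31.5, 27.3, 28.0 and 25.8 CPM in WT NaCl libraries. WT azacitidine replicates 1 and 2 were below all 4 NaCl libraries, while replicate 3 lay just above the lowest of them. Its log2 change was -0.03 ± 0.18 in R882H and -0.49 ± 0.20 in WT (edgeR, adjusted p = 0.825), and the difference between both was 0.46 ± 0.27 (edgeR, adjusted p = 0.763).

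Uba7 (chromosome 9, 107975505 to 107984060), the activating enzyme for Isg15, had the highest level per length of its class, 43.9 FPKM. Uba7 gave 431, 312, 384, 288 and 354 CPM in R882H azacitidine libraries, against 228, 109.5, 396 and 439 CPM in R882H NaCl libraries. For Uba7, WT libraries held 236, 186 and 359 CPM in WT azacitidine libraries, against 225, 207, 385 and 370.4 CPM in WT NaCl libraries. Replicates 1 and 2 were the lowest of their group in R882H NaCl, WT azacitidine and WT NaCl, at 110 to 236 CPM against 359 to 439 CPM in replicates 3 and 4, whereas R882H azacitidine libraries had no such split. The log2 change with azacitidine was 0.27 ± 0.33 in R882H and -0.19 ± 0.38 in WT. Herc6, the mouse ligase for Isg15, ranged from 8.35 to 15.9 CPM over the 16 libraries.

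The 2-5A synthetases make the oligoadenylates that activate RNase L when they meet double-stranded RNA. Oas1a (ENSMUSG00000052776, chromosome 5, 120896256 to 120907521) was the highest of the class at 14.4 FPKM. Oas1a had 35.9, 38.9, 28.3, 26.9 and 23.5 CPM in R882H azacitidine libraries, against 17.1, 19.2, 32.8 and 29.2 CPM in R882H NaCl libraries. For Oas1a, WT libraries held 26.4, 24.3 and 31.6 CPM in WT azacitidine libraries, against 39.7, 25.0, 29.9 and 25.8 CPM in WT NaCl libraries. R882H NaCl replicates 1 and 2 were the lowest of all 16, and the groups overlapped in both genotypes. Its log2 change was 0.32 ± 0.22 in R882H (edgeR, adjusted p = 0.810) and -0.13 ± 0.25 in WT. Oas1g (chromosome 5, 120876142 to 120887613), a close paralogue, gave 6.22, 5.53, 3.22, 3.51 and 3.259 CPM in R882H azacitidine libraries, against 2.24, 1.54, 3.42 and 2.77 CPM in R882H NaCl libraries. For Oas1g, WT libraries held 2.69, 1.38 and 4.13 CPM in WT azacitidine libraries, against 4.49, 2.43, 4.03 and 3.91 CPM in WT NaCl libraries. In R882H the overlap rested on NaCl replicate 3, which lay above azacitidine replicates 3 and 5. The log2 change of Oas1g was 0.80 ± 0.34 in R882H (edgeR, adjusted p = 0.687) and -0.44 ± 0.39 in WT, and the difference between both was 1.24 ± 0.52 (edgeR, adjusted p = 0.763). Of the 50-base stretches of its transcripts, 45.7% also occur in Oas1a or Oas1b, and 57.6% of those of Oas1a occur in Oas1g or Oas1b, so the split of reads among them is uncertain. Their promoters above carry the same overlapping matches, 2 bases farther from the start in Oas1a.

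Oasl1 (chromosome 5, 114923240 to 114937915), a synthetase-like protein without synthetase activity that restrains Irf7 translation in mouse, had the lowest p of the members in the averaged azacitidine effect. Oasl1 stood at 12.6, 11.7, 11.7, 9.76 and 8.59 CPM in R882H azacitidine libraries, against 12.8, 22.5, 11.97 and 11.1 CPM in R882H NaCl libraries. For Oasl1, WT libraries held 9.16, 6.33 and 8.16 CPM in WT azacitidine libraries, against 15.8, 12.5, 12.8 and 11.6 CPM in WT NaCl libraries. The WT groups did not overlap, with all 3 azacitidine libraries lower, and in R882H the NaCl group held an upper value of 22.5 CPM in replicate 2. Its log2 change was -0.42 ± 0.22 in R882H (edgeR, adjusted p = 0.764), -0.74 ± 0.25 in WT (edgeR, adjusted p = 0.825) and -0.58 ± 0.17 averaged (edgeR, adjusted p = 0.345). Left out in turn, the 16 libraries gave averaged values of -0.64 to -0.44. R882H against WT under azacitidine gave 0.46 ± 0.24 (edgeR, adjusted p = 0.541). Its neighbour Oasl2 (chromosome 5, 114896936 to 114912234), named in detail after its values were seen, had 95.6, 87.0, 71.9, 75.0 and 69.4 CPM in R882H azacitidine libraries, against 43.2, 31.5, 112 and 111 CPM in R882H NaCl libraries. For Oasl2, WT libraries held 35.5, 35.0 and 75.0 CPM in WT azacitidine libraries, against 80.5, 53.3, 102 and 91.5 CPM in WT NaCl libraries. In both NaCl groups replicates 1 and 2 were below replicates 3 and 4. The log2 change of Oasl2 was 0.10 ± 0.34 in R882H and -0.75 ± 0.40 in WT (edgeR, adjusted p = 0.861).

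Oas2 and Oas3 lie side by side on chromosome 5, at 120730333 to 120749853 and 120753098 to 120777661. Oas2 had 10.9, 9.34, 7.32, 10.8 and 7.95 CPM in R882H azacitidine libraries, against 9.21, 4.13, 10.6 and 7.97 CPM in R882H NaCl libraries. For Oas2, WT libraries held 12.1, 5.74 and 10.6 CPM in WT azacitidine libraries, against 6.18, 7.76, 8.25 and 6.07 CPM in WT NaCl libraries. Values overlapped throughout, and the log2 change was 0.22 ± 0.27 in R882H and 0.42 ± 0.31 in WT, the 1 positive WT estimate of its class. Oas3 gave 24.3, 12.5, 17.2, 19.97 and 20.9 CPM in R882H azacitidine libraries, against 11.0, 8.04, 28.9 and 23.3 CPM in R882H NaCl libraries. For Oas3, WT libraries held 11.6, 5.90 and 12.7 CPM in WT azacitidine libraries, against 12.3, 8.72, 20.3 and 18.6 CPM in WT NaCl libraries. R882H azacitidine libraries were above WT azacitidine libraries except replicate 2, at 12.5 CPM, which lay just under the highest WT value of 12.7. That difference was 0.91 ± 0.41 on the log2 scale (edgeR, adjusted p = 0.533), and it was 0.65 without WT azacitidine replicate 2.

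Among the antiviral factors, Ifitm3 (ENSMUSG00000025492, chromosome 7, 141009586 to 141010770) blocks virus entry at endosomal membranes and is highly expressed in stem cells. Ifitm3 had 307, 365, 274, 326 and 249.8 CPM in R882H azacitidine libraries, against 442, 207, 336 and 379.8 CPM in R882H NaCl libraries. For Ifitm3, WT libraries held 253, 313 and 370.4 CPM in WT azacitidine libraries, against 463, 449.8, 344 and 389 CPM in WT NaCl libraries. The groups overlapped in both genotypes, with a log2 change of -0.16 ± 0.20 in R882H and -0.40 ± 0.22 in WT (edgeR, adjusted p = 0.871). Bst2 (chromosome 8, 71534255 to 71537456), the tetherin that holds budding virions at the surface, is also a marker of plasmacytoid dendritic cells. Bst2 stood at 68.0, 85.8, 71.4, 82.1 and 64.5 CPM in R882H azacitidine libraries, against 117, 76.5, 63.0 and 68.9 CPM in R882H NaCl libraries. For Bst2, WT libraries held 82.3, 92.9 and 91.9 CPM in WT azacitidine libraries, against 108, 116, 70.9 and 76.5 CPM in WT NaCl libraries. In both NaCl groups replicates 1 and 2 were above replicates 3 and 4, the reverse of Oasl2, and the log2 change with azacitidine was -0.13 ± 0.19 in R882H and -0.06 ± 0.22 in WT. The other 8 plasmacytoid markers summed to 299 to 358 CPM in R882H azacitidine libraries, against 219 to 387 in R882H NaCl libraries, and to 295 to 432 CPM in WT azacitidine libraries, against 248 to 410.0 in WT NaCl libraries. Their part in the Bst2 values was not tested.

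Rtp4 (chromosome 16, 23520291 to 23614222), an interferon-induced protein that binds the replication complexes of flaviviruses, gave 64.7, 78.3, 53.0, 54.2 and 44.0 CPM in R882H azacitidine libraries, against 64.3, 32.0, 72.7 and 67.3 CPM in R882H NaCl libraries. For Rtp4, WT libraries held 35.3, 40.4 and 52.9 CPM in WT azacitidine libraries, against 88.6, 65.2, 77.9 and 62.9 CPM in WT NaCl libraries. All 3 WT azacitidine libraries were below all 4 WT NaCl libraries, and the R882H groups overlapped with the lowest value in NaCl replicate 2. The log2 change of Rtp4 was -0.01 ± 0.23 in R882H and -0.78 ± 0.26 in WT (edgeR, adjusted p = 0.825), a difference of 0.78 ± 0.34 (edgeR, adjusted p = 0.763). In WT it was -0.97 to -0.66 with each library left out in turn. As the WT groups do not overlap, leaving 1 library out could not turn its sign.

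Rsad2 and Cmpk2 lie next to each other on chromosome 12, on opposite strands, at 26442746 to 26456452 and 26469204 to 26479837. Rsad2 encodes viperin, which makes a chain-terminating nucleotide, and Cmpk2 is a nucleotide kinase that supplies its substrate. Rsad2 had 19.3, 14.0, 14.1, 15.5 and 12.9 CPM in R882H azacitidine libraries, against 25.8, 10.7, 23.0 and 21.8 CPM in R882H NaCl libraries. For Rsad2, WT libraries held 12.7, 9.55 and 16.8 CPM in WT azacitidine libraries, against 17.8, 16.1, 19.8 and 20.9 CPM in WT NaCl libraries. R882H NaCl replicates 1, 3 and 4 lay above all 5 azacitidine libraries and replicate 2 below all of them. The log2 change was -0.42 ± 0.23 in R882H (edgeR, adjusted p = 0.765), -0.52 ± 0.27 in WT (edgeR, adjusted p = 0.860) and -0.47 ± 0.18 averaged (edgeR, adjusted p = 0.554). Cmpk2 stood at 57.3, 52.1, 47.1, 43.5 and 48.5 CPM in R882H azacitidine libraries, against 42.9, 74.3, 58.0 and 50.04 CPM in R882H NaCl libraries. For Cmpk2, WT libraries held 27.1, 39.7 and 35.9 CPM in WT azacitidine libraries, against 48.1, 33.3, 61.1 and 48.4 CPM in WT NaCl libraries. Every R882H azacitidine library was above every WT azacitidine library, with a log2 difference of 0.54 ± 0.21 (edgeR, adjusted p = 0.533). For azacitidine against NaCl in WT the change of Cmpk2 was -0.48 ± 0.22 (edgeR, adjusted p = 0.825), with 1 NaCl library, replicate 2, inside the azacitidine range.

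Mx1 and Mx2, dynamin-like GTPases, lie on chromosome 16 at 97447035 to 97462907 and 97535308 to 97560900, and Mx2 is annotated as a polymorphic pseudogene. Mx1, whose promoter drives Cre in the study's mice, had 0.874, 2.01, 0.706, 0.899 and 0.864 CPM in R882H azacitidine libraries, against 0.0886, 0.925, 1.48 and 0.916 CPM in R882H NaCl libraries. For Mx1, WT libraries held 1.03, 1.00 and 1.54 CPM in WT azacitidine libraries, against 1.39, 0.907, 1.14 and 1.499 CPM in WT NaCl libraries. Its level rested on 3 to 110 counts per library, the 3 in R882H NaCl replicate 1, and the log2 change was 0.32 ± 0.51 in R882H and -0.05 ± 0.58 in WT. Mx2 gave 2.30, 2.60, 1.46, 1.63 and 1.63 CPM in R882H azacitidine libraries, against 5.17, 1.77, 2.20 and 2.17 CPM in R882H NaCl libraries. For Mx2, WT libraries held 2.57, 0.650 and 1.85 CPM in WT azacitidine libraries, against 4.30, 2.88, 2.00 and 3.28 CPM in WT NaCl libraries. NaCl replicate 1 was the highest of its group in both genotypes, and the averaged azacitidine effect was -0.72 ± 0.30 (edgeR, adjusted p = 0.645). Ddx60, a helicase of RNA sensing, ranged from 7.17 to 24.5 CPM, and Samd9l, which restrains translation and the growth of myeloid progenitors, from 27.4 to 89.7 CPM.

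The ADP-ribosylation factors are led in level by Parp9 (ENSMUSG00000022906, chromosome 16, 35938470 to 35972605) at 10.7 FPKM, which forms a complex with the ubiquitin ligase Dtx3l. Parp9 had 64.1, 55.0, 56.4, 53.4 and 62.4 CPM in R882H azacitidine libraries, against 40.8, 33.2, 71.1 and 65.9 CPM in R882H NaCl libraries. For Parp9, WT libraries held 48.6, 43.9 and 52.4 CPM in WT azacitidine libraries, against 48.3, 38.9, 70.9 and 63.4 CPM in WT NaCl libraries. Under azacitidine all 5 R882H libraries lay above all 3 WT libraries, by 0.27 ± 0.23 on the log2 scale (edgeR, adjusted p = 0.658), a difference close to its SE. Parp9 and Dtx3l overlap at their starts on opposite strands, and an antisense gene over Parp9, Gm15564, held 75794 counts over all libraries against 36949 for Parp9. The strand setting of the counting is not given in the sources used here, so reads of these genes cannot be parted with certainty. Parp12, which acts on stressed translation and Golgi proteins, ranged from 18.6 to 60.2 CPM, Parp14, a mono-ADP-ribosyltransferase of interferon and interleukin-4 signalling, from 12.4 to 32.6 CPM, and Dtx3l from 32.9 to 74.7 CPM. Over the class, 3 of 4 estimates were positive for azacitidine in R882H (median 0.07) and 2 of 4 in WT (median -0.01).

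Sp100 (ENSMUSG00000026222, chromosome 1, 85649988 to 85709998), a nuclear body protein that silences viral DNA, was the highest of the nuclear and death regulators at 21.4 FPKM. Sp100 gave 193, 187, 206, 158 and 184 CPM in R882H azacitidine libraries, against 132, 97.4, 202 and 200.3 CPM in R882H NaCl libraries. For Sp100, WT libraries held 145, 165 and 156 CPM in WT azacitidine libraries, against 162, 137, 196 and 180.0 CPM in WT NaCl libraries. R882H NaCl replicates 1 and 2 were the lowest of the 16, and the log2 change was 0.23 ± 0.19 in R882H and -0.12 ± 0.21 in WT. Phf11d (chromosome 14, 59347407 to 59365470), a PHD finger protein of a mouse gene cluster, stood at 24.3, 9.74, 9.16, 11.0 and 10.3 CPM in R882H azacitidine libraries, against 15.6, 8.37, 11.97 and 11.6 CPM in R882H NaCl libraries. For Phf11d, WT libraries held 5.52, 4.71 and 11.2 CPM in WT azacitidine libraries, against 7.02, 3.6, 9.37 and 7.12 CPM in WT NaCl libraries. The estimates for R882H against WT were positive under both treatments, at 0.81 ± 0.37 under NaCl (edgeR, adjusted p = 0.889) and 0.85 ± 0.40 under azacitidine (edgeR, adjusted p = 0.535), and the groups overlapped in both, with WT azacitidine replicate 3 above 4 of the 5 R882H azacitidine libraries. Without R882H azacitidine replicate 1, at 24.3 CPM, the difference under azacitidine was 0.49. Phf11a and Phf11b share sequence with each other and the cluster, with 35.2% and 47% of their 50-base stretches found elsewhere, and held 0 to 1.03 CPM and 11.1 to 24.3 CPM. Trim30a, a restraint on Toll-like receptor signalling in mouse, ranged from 29.6 to 61.1 CPM, and Xaf1, which antagonises an apoptosis inhibitor, from 17.9 to 42.9 CPM.

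Ifi27 (ENSMUSG00000064215, chromosome 12, 103434211 to 103440239), a small membrane protein, was the highest of its class. Ifi27 had 137, 170.2, 125, 125 and 116 CPM in R882H azacitidine libraries, against 127, 103, 148.6 and 126 CPM in R882H NaCl libraries. For Ifi27, WT libraries held 145, 132 and 144 CPM in WT azacitidine libraries, against 179, 143, 124 and 129 CPM in WT NaCl libraries. The log2 change was 0.09 ± 0.15 in R882H and -0.04 ± 0.17 in WT, within the spread of the libraries. Ifi27l2a (chromosome 12, 103442167 to 103443680), its neighbour, stood at 3.58, 12.6, 4.92, 6.70 and 4.84 CPM in R882H azacitidine libraries, against 15.4, 4.47, 6.97 and 5.39 CPM in R882H NaCl libraries. For Ifi27l2a, WT libraries held 6.21, 6.14 and 8.96 CPM in WT azacitidine libraries, against 12.3, 13.3, 5.72 and 6.58 CPM in WT NaCl libraries. High values of 12.3 to 15.4 CPM occurred in R882H azacitidine replicate 2, R882H NaCl replicate 1 and WT NaCl replicates 1 and 2, and the change was -0.30 ± 0.41 in R882H and -0.42 ± 0.48 in WT. Ifi44 (chromosome 3, 151730922 to 151749960), an interferon-induced protein with antiproliferative activity, gave 23.7, 17.7, 16, 16.95 and 17.2 CPM in R882H azacitidine libraries, against 17.3, 9.84, 35.4 and 34.0 CPM in R882H NaCl libraries. For Ifi44, WT libraries held 10.1, 3.46 and 18.0 CPM in WT azacitidine libraries, against 19.5, 14.6, 30.1 and 26.9 CPM in WT NaCl libraries. WT azacitidine replicates 1 and 2 were below all WT NaCl libraries and replicate 3 was above the lowest of them. The log2 change of Ifi44 was -0.40 ± 0.41 in R882H, -1.11 ± 0.48 in WT (edgeR, adjusted p = 0.825) and -0.76 ± 0.31 averaged (edgeR, adjusted p = 0.627), and in WT it ran from -1.75 without azacitidine replicate 3 to -0.70 without replicate 2. Ifi35, which also acts as a released danger signal, varied least of all members, with 41.5 to 71.8 CPM and a coefficient of variation of 12.1%.

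The Schlafen proteins restrain growth and translation, and Slfn2 is known to keep T cells quiescent. Slfn8 (ENSMUSG00000035208, chromosome 11, 83002158 to 83020810) was the highest per length at 8.73 FPKM. Slfn8 had 40.3, 39.9, 43.0, 43.5 and 34.9 CPM in R882H azacitidine libraries, against 34.7, 21.1, 48.8 and 49.4 CPM in R882H NaCl libraries. For Slfn8, WT libraries held 47.2, 23.0 and 31.4 CPM in WT azacitidine libraries, against 29.8, 27.0, 34.7 and 49.3 CPM in WT NaCl libraries. Its groups overlapped, with a log2 change of 0.07 ± 0.25 in R882H and -0.05 ± 0.29 in WT. Slfn2 (chromosome 11, 83065112 to 83070678) gave 10.8, 22.0, 5.93, 15.0 and 9.88 CPM in R882H azacitidine libraries, against 35.2, 9.84, 15.9 and 20.8 CPM in R882H NaCl libraries. For Slfn2, WT libraries held 3.69, 6.63 and 17.8 CPM in WT azacitidine libraries, against 5.85, 6.19, 11.1 and 11.4 CPM in WT NaCl libraries. R882H NaCl replicate 1, the library with the high Cd3e, had the highest Slfn2 of the 16. R882H azacitidine replicate 2, with Cd3e at 0.696 CPM, came next at 22.0 CPM. R882H NaCl replicate 2, with Cd3e at 3.00 CPM, lay inside the WT NaCl range. The log2 difference of R882H against WT under NaCl was 1.24 ± 0.50 (edgeR, adjusted p = 0.807), and 0.85 without R882H NaCl replicate 1. Slfn1 (chromosome 11, 83116849 to 83122670) stood at 0.362, 2.84, 0.141, 0.128 and 0.0988 CPM in R882H azacitidine libraries, against 5.43, 1.13, 0.0239 and 0 CPM in R882H NaCl libraries. For Slfn1, WT libraries held 0, 0.0541 and 0.462 CPM in WT azacitidine libraries, against 0.0235, 0, 0.203 and 0.211 CPM in WT NaCl libraries. R882H NaCl replicate 1 held 5.43 CPM and R882H azacitidine replicate 2, with low Cd3e, held 2.84 CPM, and 3 libraries had no count. The difference under NaCl was 3.86 ± 1.70 (edgeR, adjusted p = 0.871), 1.77 without R882H NaCl replicate 1 and -2.99 without the 3 doubted libraries, so that its sign rested on R882H NaCl replicates 1 and 2. Cd3e in WT NaCl libraries was 0 to 0.445 CPM, and the part of T cell RNA in the Schlafen values was not tested. Slfn5 ranged from 1.54 to 11.6 CPM.

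Lgals9 (ENSMUSG00000001123, chromosome 11, 78962974 to 78984946) encodes galectin-9, a lectin that regulates T cells and myeloid progenitors through Tim-3. Lgals9 gave 815, 785, 877, 711 and 714 CPM in R882H azacitidine libraries, against 438, 988, 569 and 555 CPM in R882H NaCl libraries. For Lgals9, WT libraries held 532, 827 and 558 CPM in WT azacitidine libraries, against 895, 647, 642 and 543 CPM in WT NaCl libraries. R882H NaCl held both the lowest and the highest of the 16 values, in replicates 1 and 2, and the log2 change was 0.29 ± 0.22 in R882H (edgeR, adjusted p = 0.823) and -0.09 ± 0.25 in WT. Lgals3bp (chromosome 11, 118392751 to 118402092), a secreted glycoprotein that binds galectin-3, had the lowest p of the members in 3 comparisons. Lgals3bp had 377, 297, 343, 350.0 and 310.2 CPM in R882H azacitidine libraries, against 230.1, 365, 358 and 382 CPM in R882H NaCl libraries. For Lgals3bp, WT libraries held 188, 225 and 259.7 CPM in WT azacitidine libraries, against 362, 285, 354 and 338 CPM in WT NaCl libraries. All 3 WT azacitidine libraries, at 188 to 259.7 CPM, were below all 4 WT NaCl libraries and below all 5 R882H azacitidine libraries. Its log2 change with azacitidine was 0.01 ± 0.16 in R882H and -0.58 ± 0.18 in WT (edgeR, adjusted p = 0.802), a difference of 0.58 ± 0.24 (edgeR, adjusted p = 0.763). R882H against WT under azacitidine gave 0.58 ± 0.17 (edgeR, adjusted p = 0.533). In WT the change was -0.70 to -0.47 with each library left out in turn.

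Tor3a (chromosome 1, 156653617 to 156674356), an ATPase of the endoplasmic reticulum, gave 101.3, 89.5, 94.4, 90.3 and 94.0 CPM in R882H azacitidine libraries, against 52.6, 53.4, 93.3 and 96.3 CPM in R882H NaCl libraries. For Tor3a, WT libraries held 59.4, 86.3 and 74.2 CPM in WT azacitidine libraries, against 102, 81.8, 94.3 and 88.2 CPM in WT NaCl libraries. R882H NaCl replicates 1 and 2 were the lowest of the 16 and replicates 3 and 4 lay within the azacitidine range. The log2 change was 0.35 ± 0.18 in R882H (edgeR, adjusted p = 0.764) and -0.32 ± 0.21 in WT, a difference of 0.67 ± 0.28 (edgeR, adjusted p = 0.763), and in R882H it was -0.01 without the 3 doubted libraries. Epsti1, a regulator of macrophage state, held 40.8 to 45.0 CPM in WT azacitidine libraries, all below the 48.0 to 52.8 CPM of WT NaCl libraries, a log2 change of -0.22 ± 0.23 (edgeR, adjusted p = 0.926). Ms4a4c, a membrane protein of the Cd20 family, ranged from 1.15 to 9.80 CPM, the highest value in R882H NaCl replicate 1.

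**Figure D3:**
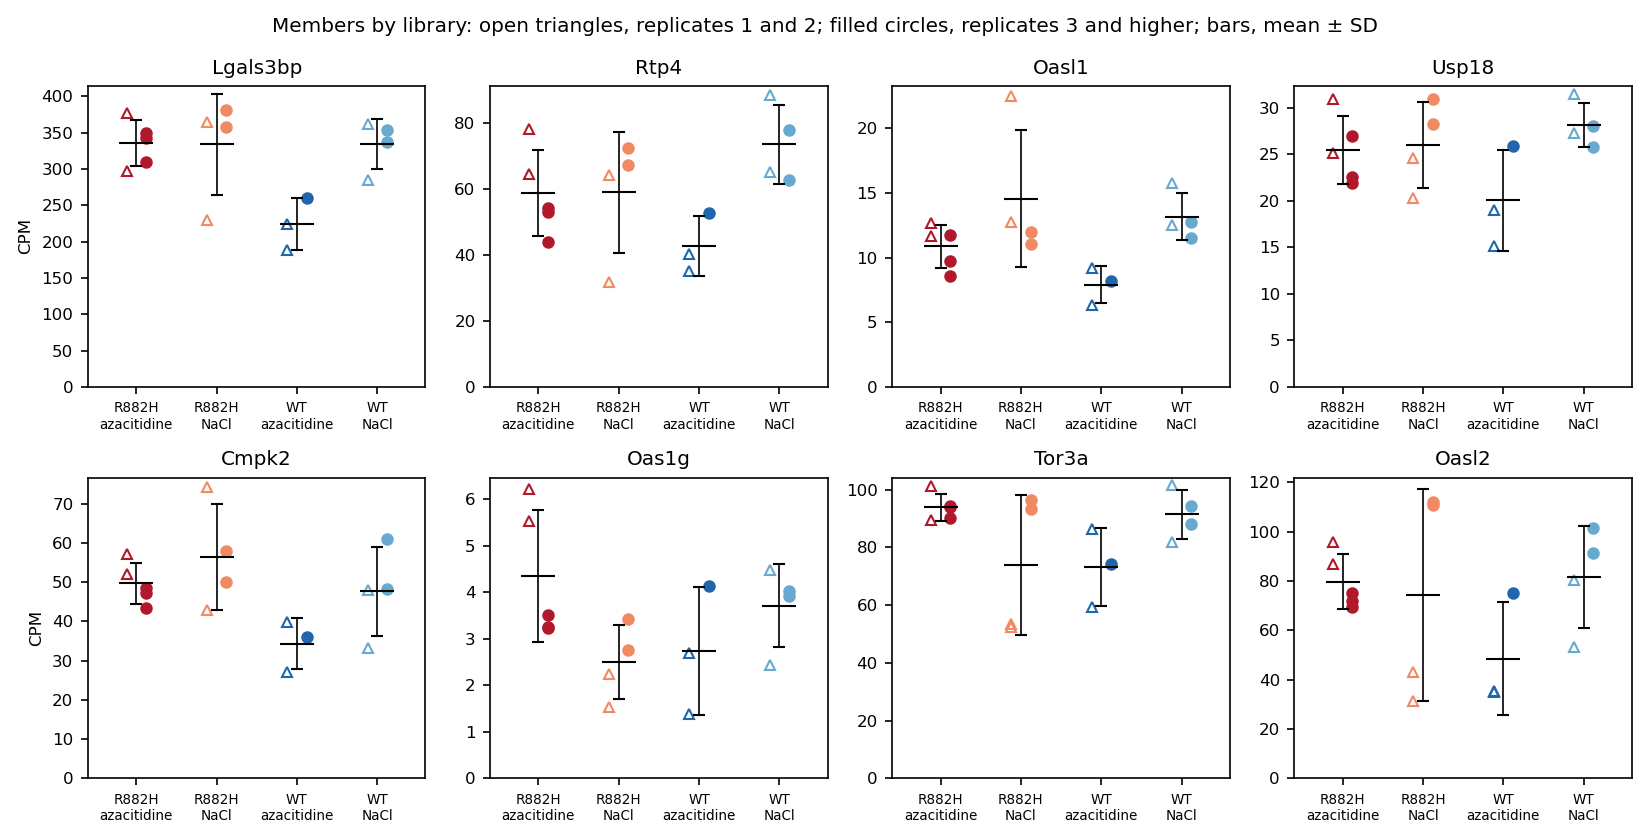
CPM (vertical axes from 0) of 8 members in each library by group, with open triangles for replicates 1 and 2, filled circles for replicates 3 and higher, and bars for mean ± SD. WT azacitidine libraries lie below WT NaCl libraries for Lgals3bp, Rtp4 and Oasl1, and the 4 R882H NaCl points of Tor3a and Oasl2 fall into a low and a high pair by replicate number.

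The replicate number went with the level of many members. In both NaCl groups, replicates 1 and 2 were below replicates 3 and 4 for 14 members, or 33.3% of the 42, against 18.31% of all tested genes. These were Uba7, Herc6, Oas3, Oasl2, Ddx60, Samd9l, Parp9, Parp12, Dtx3l, Sp100, Phf11b, Ifi44, Slfn8 and Epsti1. For Isg15 and Bst2 replicates 1 and 2 were higher in both groups, against 18.47% of all genes. No label explains the numbering, and the split was noticed in these data. The comparisons were therefore repeated within replicates 1 and 2 and within replicates 3 and higher, where a set holds 1 to 3 libraries of a group and no test was made.

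Within replicates 1 and 2, azacitidine against NaCl in R882H gave a median difference of mean log2 CPM of 0.42 over the members, with 30 of 42 positive. Within replicates 3 and higher it gave -0.27, with 36 of 42 negative, beside a pooled median of 0.00. The sets rest on a split noticed in the NaCl libraries, so these opposite signs do not show opposite responses to azacitidine. Over all tested genes, same-numbered libraries of the 2 R882H groups had correlations of -0.119 to 0.117 in their deviations from the group means. The difference of Oasl2 stood at 1.31 in R882H replicates 1 and 2 and at -0.63 in replicates 3 and higher, and Oas1g at 1.63 and 0.11. In WT the median was -0.32 within replicates 1 and 2, with 32 of 42 negative, and -0.08 with 24 of 42 negative within replicates 3 and higher, where 1 azacitidine library was set against 2. Of the 42 members, 19 were lower with azacitidine in both WT sets, 5 were higher in both and 18 had opposite signs. Lgals3bp was -0.64 and -0.41, Rtp4 -1.01 and -0.40, and Oasl1 -0.88 and -0.57 in the 2 WT sets. The WT groups of these 3 did not overlap, so no split could turn their signs. Usp18, whose WT groups overlapped, was -0.79 and -0.05.

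For R882H against WT under azacitidine, the median was 0.60 within replicates 1 and 2, with 38 of 42 positive, and -0.14 within replicates 3 and higher, with 31 of 42 negative. In the latter set 3 R882H libraries stood against 1 WT library, replicate 3, which all these signs share. The limit given for the opposite signs in R882H holds here too. Lgals3bp stood at 0.70 and 0.36 and Cmpk2 at 0.74 and 0.37. The groups of both did not overlap, so no split could turn their signs. Oas3, whose groups overlapped, stood at 1.07 and 0.60. Phf11d stood at 1.59 and -0.15, Rtp4 at 0.91 and -0.08 and Oas1g at 1.58 and -0.31. For R882H against WT under NaCl the medians were -0.20 and 0.05. Over all genes the medians within sets lay between -0.02 and 0.02 in these 4 comparisons.

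**Figure D4:**
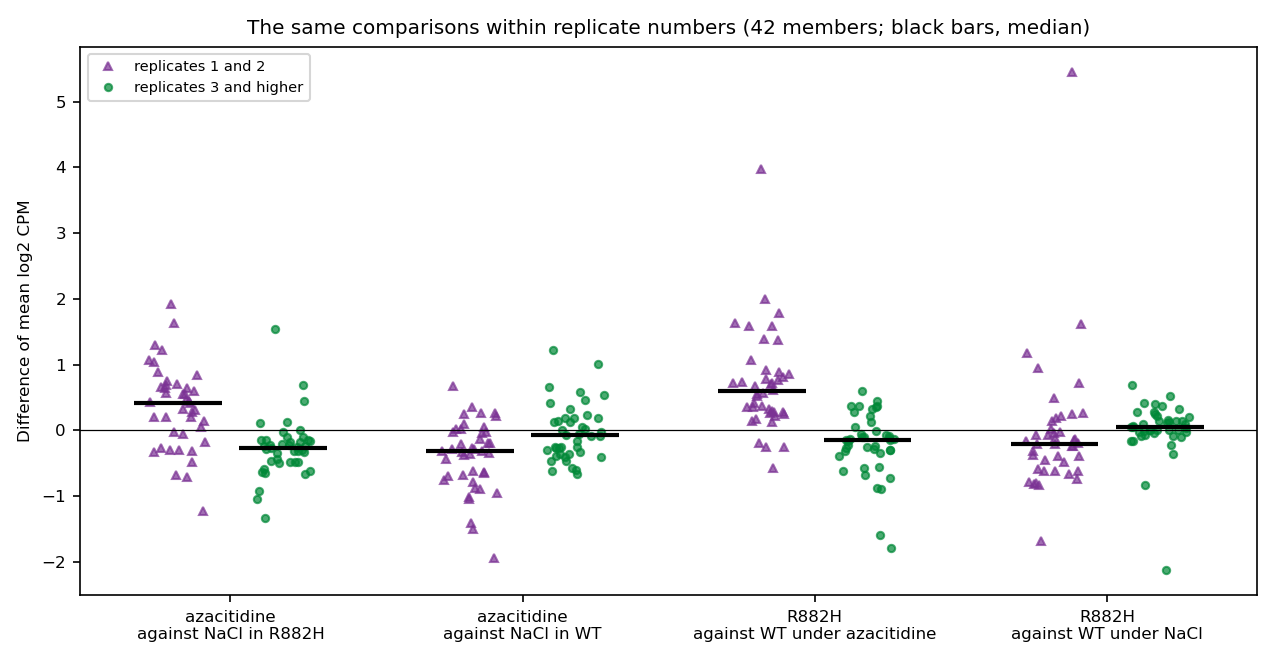
Difference of mean log2 CPM for each of the 42 members (points) in 4 comparisons, computed within replicates 1 and 2 (purple triangles) and within replicates 3 and higher (green circles), with black bars at the medians. The medians are 0.42 and -0.27 for azacitidine in R882H, -0.32 and -0.08 for azacitidine in WT, 0.60 and -0.14 for R882H against WT under azacitidine, and -0.20 and 0.05 under NaCl.

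Single libraries held many of the extreme values. R882H NaCl replicate 2, the library with the high erythroid and low stem cell marker sums, was the lowest of the 16 for 16 members, or 38.1%, while it was the lowest for 17.45% of all tested genes. WT azacitidine replicate 2 was the lowest for 9 members, against 6.49% of all genes. R882H NaCl replicate 3 and WT NaCl replicate 1 were each the highest for 9 members, against 7.20% and 4.27% of all genes, and R882H NaCl replicate 1 was the highest for 8, against 12.4% of all genes, which were Isg15, Mx2, Rsad2, Bst2, Ifi27l2a, Slfn1, Slfn2 and Ms4a4c. The part of the marker classes in these levels was not tested.

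**Figure D5:**
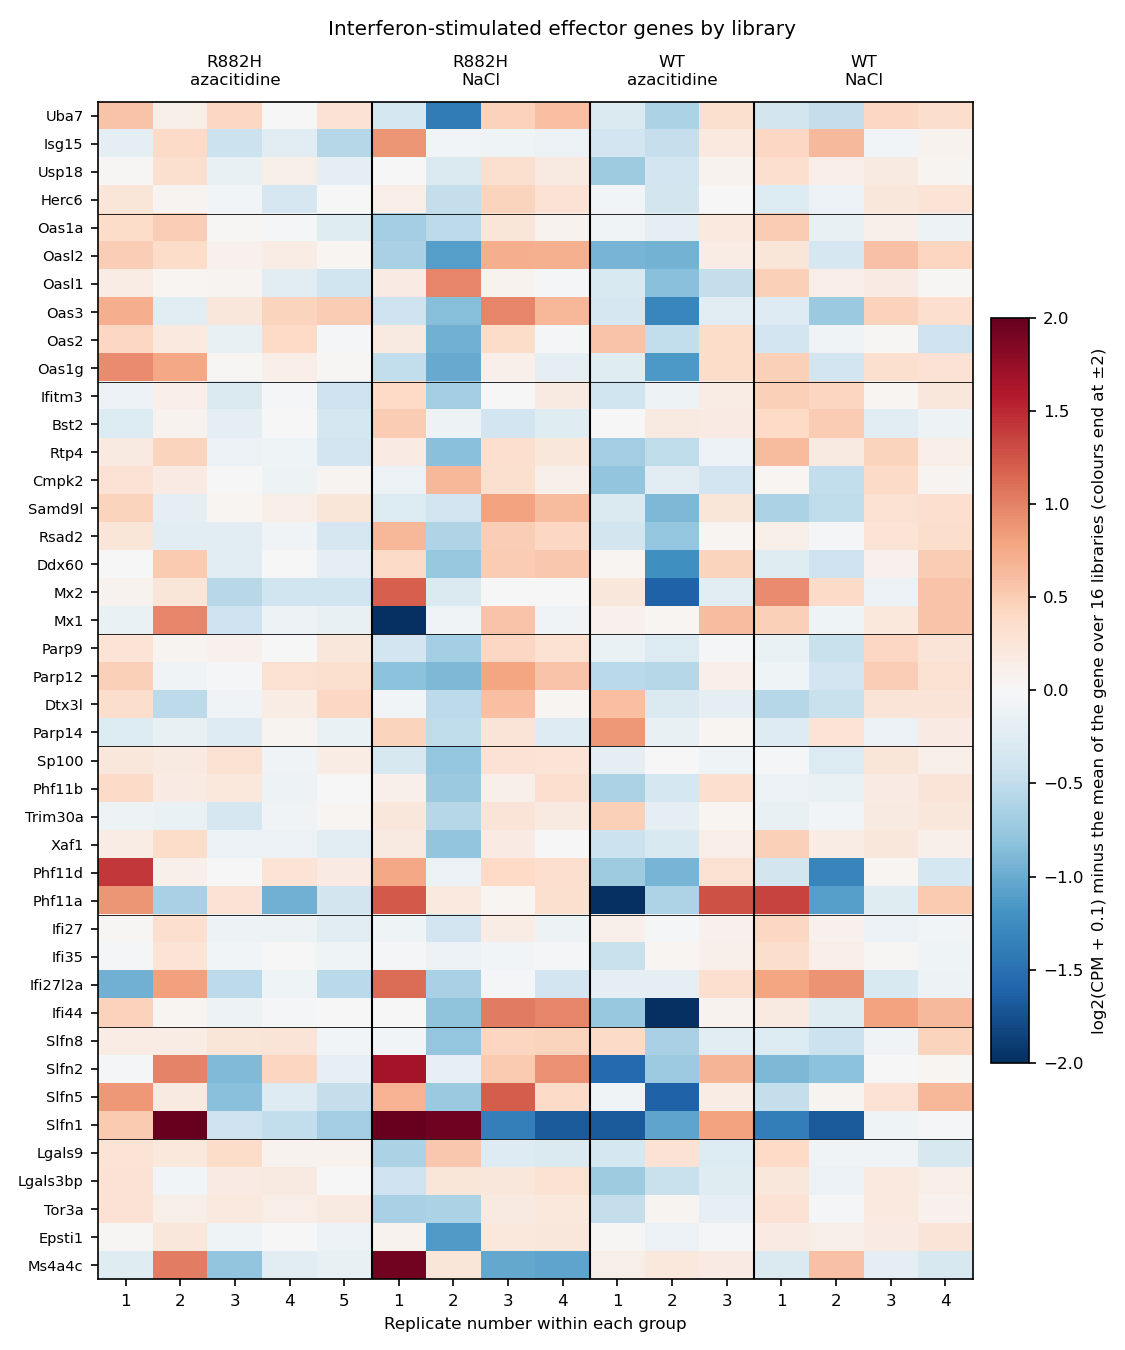
Level of each member in each library as log2(CPM + 0.1) minus the mean of the gene over the 16 libraries, with genes in rows by class and libraries in columns by group. The column of R882H NaCl replicate 2 is low for most rows, WT azacitidine replicates 1 and 2 are lower on average than replicate 3, and R882H NaCl replicate 1 is high for Slfn1, Slfn2, Ms4a4c, Ifi27l2a and Isg15.

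The genes that carry the interferon signal were examined as a list of 38 ligands, receptors, kinases, transcription factors and negative regulators, of which 33 were in the tables and 26 were tested. edgeR called 0 of the 26 in any of the 6 comparisons. The ligands other than Ifng were almost undetected. Ifnb1 was at 0 to 0.0856 CPM in R882H azacitidine libraries, against 0 to 0.0624 in R882H NaCl libraries. In WT libraries Ifnb1 was at 0 to 0.0257 CPM with azacitidine, against 0 with NaCl. Ifng stood at 1.21 CPM in R882H NaCl replicate 1, the library with the high Cd3e. It stood at 0.33 CPM in R882H azacitidine replicate 2, where Cd3e was at 0.696 CPM. It was at most 0.128 CPM in the other libraries, and the part of T cell RNA in it was not tested. The receptor chains were present, with Ifnar1 at 97.4 ± 12.3 CPM in R882H azacitidine libraries (SD, n = 5), against 83.2 ± 34.3 in R882H NaCl libraries (n = 4). For azacitidine in R882H 21 of the 26 were positive (median 0.17), against 44.3% of all genes. In WT 18 of 26 were negative (median -0.14), against 48.1% of all genes. Of the 10 transcription factors 9 were positive in R882H and 8 negative in WT.

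Irf7 was the 1 gene of this list at an unadjusted p under 0.05 in WT. Irf7 had 53.0, 48.3, 43.2, 34.8 and 32.1 CPM in R882H azacitidine libraries, against 39.6, 29.2, 50.4 and 50.3 CPM in R882H NaCl libraries. For Irf7, WT libraries held 20.2, 21.2 and 35.7 CPM with azacitidine, against 52.0, 42.2, 54.4 and 47.1 CPM with NaCl. These did not overlap, where 2.79% of all genes lay wholly lower with azacitidine in WT. Its log2 change was 0.00 ± 0.21 in R882H and -0.93 ± 0.25 in WT (edgeR, adjusted p = 0.656), a difference of 0.93 ± 0.32 (edgeR, adjusted p = 0.763). For R882H against WT under azacitidine Irf7 was 0.72 ± 0.24, Irf9 0.44 ± 0.18 and Jak1 0.64 ± 0.28 (edgeR, adjusted p = 0.533 each). Ptpn6, a phosphatase that dampens receptor signalling, had a difference between responses of 0.59 ± 0.28 (edgeR, adjusted p = 0.763).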

How the data were processed

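RNA from sorted LSK cells was sequenced in 16 libraries of 4 groups. Per the labels, the authors left out RNA with an integrity number under 8 and amplified cDNA with a low-input kit. The deposited tables hold raw counts per gene. The submitters' processing notes name HISAT2 2.0.5, featureCounts 1.6.2, edgeR 3.26.6 and the build GRCm38 (mm10), without roles. A second deposited table per library holds FPKM, the counts scaled by feature length and by an effective library size, and the length in bases is deposited by the authors in another column. The strand setting and the handling of reads with several positions are not given in the sources used here. Rows for 1201 repeat families, 2.97 to 10.1% of counts, were left out of library sizes and tests.

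Symbols and positions from the GENCODE annotation of GRCm38 were found for 30100 of the 30141 genes, and counts and FPKM were joined by identifier. Genes were filtered with filterByExpr (18341 kept), scaled by TMM and fitted with the quasi-likelihood model of edgeR 4.0.16 (R 4.3.3), with 1 coefficient per group over all libraries, 6 contrasts and Benjamini-Hochberg adjustment over all tested genes at 0.05. The fit was tested on simulated data. The biological coefficient of variation was 40.7%. Log2 CPM for within-set differences used a prior count of 2. CPM values carry no molecular identifiers, so errors cover the spread between libraries. Counts of the 25 pairs of libraries within groups differed far beyond sampling noise (chi-square per gene of 42.0 or more), so no library was a copy of another. Alternatives were DESeq2 1.42.0, voom of limma 3.58.1, DESeq2's size factors (RLE), no filter, a replicate block, a term for replicates 1 and 2, only the groups compared and each library left out.

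Replicate numbers were taken to pair 2 groups where every same-numbered pair of libraries had correlated deviations from the group means above 0.1. This held between R882H NaCl and WT NaCl (0.101 to 0.342, 4 pairs). Differently numbered pairs of these groups ran from -0.383 to 0.313. R882H NaCl replicate 1 correlated at 0.258 with WT NaCl replicate 2, so the number need not mark a pair. All 3 same-numbered correlations were also positive between R882H NaCl and WT azacitidine (0.0585 to 0.232). The same held between WT azacitidine and WT NaCl (0.0492 to 0.345), though in neither case were all above 0.1. R882H azacitidine gave same-numbered correlations of -0.119 to 0.117 with R882H NaCl, -0.124 to 0.0641 with WT azacitidine and -0.0726 to 0.231 with WT NaCl. The block changed no member's call in any comparison. Promoters came from RefSeq (GRCm38.p6), and shared sequence was counted as 50-base stretches of annotated transcripts found in another gene. The members, lists and tests were chosen with earlier results of these data known. Every member is named, and values in every library are given for the 5 with the lowest p in each contrast, 8 members fixed by name (Isg15, Usp18, Oas2, Mx1, Rsad2, Bst2, Ifitm3 and Ifi27l2a) and the member with the highest FPKM of each class.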

Additional observations from a re-analysis of the deposited data

Results flagged for a closer look

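Within a group, 11 of 126 sets of values tested for a library far from the others had one, or 8.73%, where chance gives about 1 in 20. In R882H NaCl replicate 2, Rtp4 at 31.97 CPM, Ddx60 at 9.96, Trim30a at 29.58 and Epsti1 at 20.16 were far below the other 3 libraries, which held at least 64.3, 22.0, 49.5 and 46.6 CPM. In R882H NaCl replicate 1, Isg15 at 19.45 CPM was far above the others of its group (9.72 to 10.1), and Lgals3bp at 230.1 CPM far below them (358 to 382). In R882H azacitidine replicate 1, Phf11d at 24.34 CPM and Ifi44 at 23.66 CPM were high against 9.16 to 11.0 and 16 to 17.7 CPM. In R882H azacitidine replicate 2, Mx1 at 2.01 CPM and Ifi35 at 68.48 CPM were high against 0.706 to 0.899 and 52.9 to 57.0 CPM. Ms4a4c at 3.81 CPM in WT NaCl replicate 2 was high against 1.99 to 2.20 CPM. No member's response differed between genotypes past the threshold in edgeR's test of the difference (lowest adjusted p = 0.763).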

How the results depend on the processing

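Members called stayed at 0 in all 148 alternative fits, with lowest adjusted p values of 0.0601 to 0.408 by comparison over these fits. Of 739 alternative fits of 30 leading results, 736 kept their sign and side of the threshold. The other 3 turned without the 3 doubted libraries, a choice made after seeing the data: Tor3a was -0.012 for azacitidine in R882H and 0.062 for R882H against WT under NaCl, where Slfn1 was -2.99. With each library left out, the median of the members ran from -0.14 to 0.09 for azacitidine in R882H, -0.52 to -0.15 in WT, 0.11 to 0.38 for the difference, -0.09 to 0.11 for R882H against WT under NaCl, 0.15 to 0.39 under azacitidine and -0.25 to -0.08 averaged. A lone sample was never left in a group. With the replicate number as a block these medians were 0.04, -0.19, 0.34, -0.08, 0.29 and -0.07, and the block changed no call. The promoter share was 25.0% of members for the core followed by CT, a narrower motif, against 0.255% of all 27025 genes with a promoter sequence and 0.378% of those tested. Over all genes edgeR called 1, 0, 0, 1, 1 and 4 in the same order, DESeq2 88, 46, 12, 28, 21 and 161, and limma-voom 1, 0, 0, 1, 0 and 3. The cause of these differences was not tested.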
